A study of Mus musculus with 15 samples.

Results

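Wild-type brainstem from 2 mouse colonies was compared across all measured genes. The members were chosen by genotype label and not by any measured value: the 3 libraries labelled AMPK+/+ and the 3 labelled LMX1B+/+, which is 6 of the 15 libraries of the series. AMPK+/+ mice are the WT animals of a colony that carries a deletion of the α2 subunit of AMP-activated protein kinase (AMPK), the cellular energy sensor. LMX1B+/+ animals are the WT animals of a colony that carries a deletion of Lmx1b, a LIM homeodomain factor of the developing brain. The study's methods give mice of the first days after birth, and the study describes the Lmx1b samples as prenatal. The labels used here give neither an age, a sex nor a strain for any library. The labels do not say whether a library is 1 animal or a pool, so the p-values below measure the spread between these libraries, which may be technical. The question is how the transcriptome of tissue labelled brain stem differs between the experiments. Stage, colony, experiment, sequencing run and depth all differ together between the groups and cannot be told apart. Below, AMPK WT and Lmx1b WT name the groups, and 3 values in a row are those of libraries 1, 2 and 3.

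Total counts were 14975095, 291212 and 15503065 in AMPK WT and 29468478, 28833130 and 35813924 in Lmx1b WT. AMPK WT 2 was therefore very shallow: the median tested gene had 3 counts there, against 153 to 498 in the other 5 libraries, and 1 count is worth 3.54 CPM, the count scaled to library size. Normalised read counts are given in CPM, that is, relative to the TMM-scaled total count of a library. The tests below used all 6 libraries, so fold changes, p-values and list counts include AMPK WT 2. Its value for a gene is given beside those of the 5 deeper libraries. Pearson's r of log2 CPM across the 19679 tested genes was 0.983 to 0.988 between Lmx1b WT libraries, 0.966 between AMPK WT 1 and 3, and 0.857 to 0.874 between those and Lmx1b WT. AMPK WT 2 correlated at 0.858 and 0.860 with AMPK WT 1 and 3, within the range of those 2 libraries with Lmx1b WT, and at 0.769 to 0.772 with Lmx1b WT. It stood alone on the first principal component, which held 72.9% of the variance, and the second (21.4%) separated AMPK WT 1 and 3 from Lmx1b WT. Both groups held libraries of both kinds by Xist and Y-linked genes: Xist was high in AMPK WT 1 and 2 and in Lmx1b WT 2, and Y-linked genes were high in the other 3 libraries.

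Marker genes went against the stage given for AMPK WT. Mbp, which encodes a main protein of compact myelin, stood at 13996, 7242 and 9647 CPM in AMPK WT. In Lmx1b WT it stood at 62.5, 67.0 and 51.8 CPM. Dcx, the doublecortin gene of migrating young neurons, was at 14.0, 21.3 and 18.8 CPM in AMPK WT and at 864, 936 and 911 CPM in Lmx1b WT. Mki67, a gene of dividing cells, was at 0.468, 0 and 3.90 CPM against 81.5, 124 and 89.7 CPM. Abundant myelin RNA with so little Dcx and Mki67 goes against a brainstem in its first days after birth, when myelination has only begun and glia still divide. The age of the animals was not tested, and so the groups are named by colony and not by stage. In Lmx1b WT the embryonic globins Hbb-y and Hbb-bh1 had 2 counts and 1 count in all, both in library 3, beside adult Hbb-bs at 190, 350 and 418 CPM.

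As background, a maturing brainstem passes through a well-known series of steps. Progenitors leave the cell cycle, young neurons extend axons and then replace their growth machinery with synapses, and receptor and channel subunits are exchanged for faster adult forms. Astrocytes take up transmitter clearance, oligodendrocytes wrap axons, and nodes of Ranvier and perineuronal nets form around fast-firing neurons. The genes that mark each step are ordered below from division to myelin.

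Among the 19679 genes tested, 2885 (14.7%) were higher and 3040 (15.4%) lower in AMPK WT, at an adjusted p under 0.05 and a change of at least 2-fold; a gene is called below when it meets both. Together these were 5925 genes, or 30.1%. The counts of the gene lists below stand beside these shares of 14.7% and 15.4%. Without AMPK WT 2, 6209 of 21792 tested genes were called. The median log2 fold change (AMPK WT minus Lmx1b WT) over all tested genes was −0.03. Under scaling by library size only, this median moved by −0.27 and the share of called genes that were higher went from 48.7% to 33.0%, so changes near the threshold in the higher direction rest on the scaling. The most counted gene of every library, ENSMUSG00000119584, held 13.2%, 16.9% and 10.8% of counts in AMPK WT. In Lmx1b WT it held 21.9%, 18.4% and 4.56%. Its part in the shift was not tested. A change of at least 4-fold was met by 997 genes in the higher and 1124 in the lower direction. The same contrast was also made in libraries not used above, 3 AMPK-/- against 3 Lmx1b+/-, where genotype differs as well. Of the 5 genes of the Y-linked and Xist list, 4 were lower and 0 higher there, with a median log2 fold change of −6.70. In the WT comparison 0 of the 5 were called. AMPK-/- 3 was very shallow too, with 335986 counts against 15564636 and 17384171 in AMPK-/- 1 and 2. In this contrast 16.7% of 19389 tested genes were called higher and 17.0% lower. Of the genes called higher in the WT comparison 78.7% were also called higher in those libraries, and 70.1% of theirs were called higher here; for lower genes the shares were 73.8% and 68.0%. Opposite calls were made for 6 genes called higher here and for 14 called lower.

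**Figure D1:**
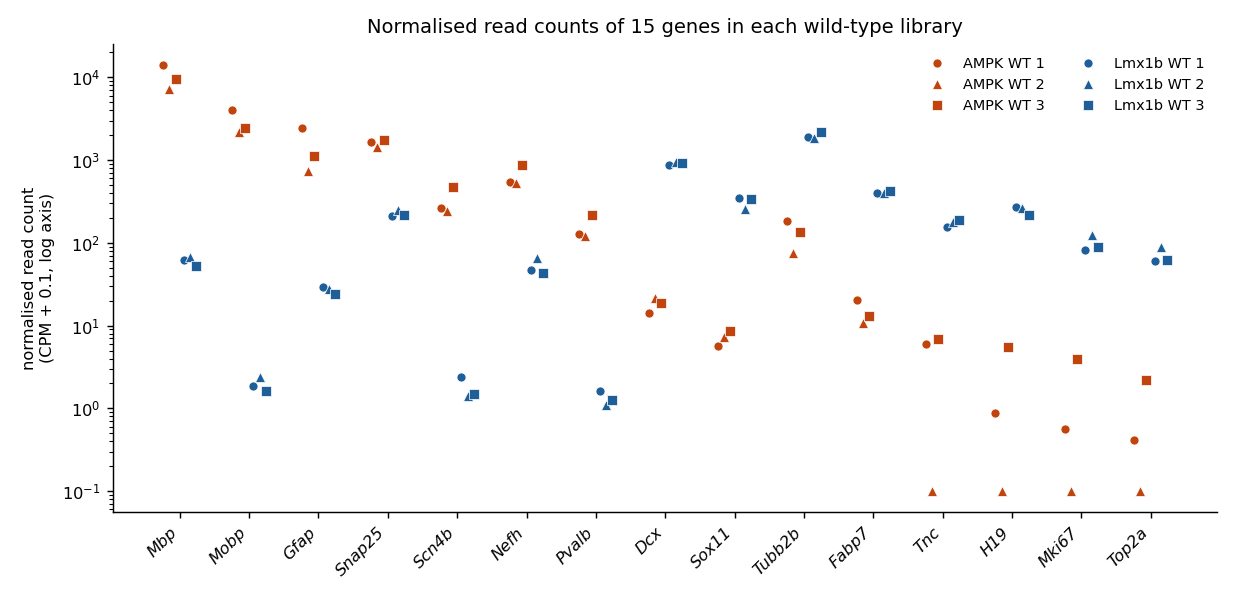
Normalised read counts (CPM + 0.1, log axis) of 15 genes in each library; colour gives the group and shape the library number, and a point at the bottom of the axis is a count of 0. Values run from Mobp at 2204 to 4020 CPM against 1.51 to 2.32 CPM to Top2a at 0 to 2.12 CPM against 60.5 to 87.8 CPM. The 2 deeper AMPK WT libraries and the 3 Lmx1b WT libraries do not overlap for any gene shown. The rule for names asked for this, and 5872 of all 5925 called genes met it.

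Genes of dividing cells were lower in AMPK WT. Of 36 genes of the cell cycle and DNA replication, 31 were lower in AMPK WT and 0 higher, against 15.4% lower over all genes, with a median log2 fold change of −2.85. Top2a, the topoisomerase that untangles replicated DNA, was at 0.312, 0 and 2.12 CPM against 60.5, 87.8 and 61.5 CPM (−5.81 ± 0.40 on the log2 scale (SE), edgeR adjusted p = 7.1e-09). Cenpf, a kinetochore protein, was at 0.0781, 0 and 0.959 CPM against 33.2, 52.2 and 36.7 CPM (−6.23 ± 0.43, adjusted p = 7.1e-09). All AMPK WT values of both genes lay far below every Lmx1b WT value, though the rule for names asked for no overlap in the deeper libraries. Ccnb1, the cyclin of mitotic entry, had 3 counts in AMPK WT in all and was 82.0-fold lower there, with an exact 95% counting interval of 28 to 398. Mcm6, a subunit of the replicative helicase, was at 8.20, 3.54 and 9.18 CPM against 46.9, 50.4 and 47.5 CPM (−2.50 ± 0.19). Knl1, another kinetochore gene and one of the 10 largest decreases, was at 0, 0 and 0.274 CPM against 9.44, 11.4 and 9.21 CPM. The 5 genes not called (Mcm4, Pcna, Ccne1, Ccne2 and Cdt1) act in or before DNA replication rather than in mitosis, and Pcna was close between the groups at 33.7, 7.09 and 21.9 CPM against 25.2, 30.4 and 29.1 CPM. These 5 were named after their values were seen.

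The promoters of these genes are shown because the list moved together, and because mitotic genes are known to share CCAAT boxes and a cell cycle homology region (CHR). For the 4 list members with the smallest p, the 150 bases before the RefSeq gene start are printed (GRCm38.p6, gene strand, 5′ to 3′); the count tables themselves were made on GRCm39. Capitals mark CCAAT or its reverse complement ATTGG, and the CHR letters TTTGAA or TTCGAA or their reverse complements. All lie on the minus strand: Ccnb1 at chr13:100786487-100786636, Top2a at chr11:99024190-99024339, Cenpf at chr1:189688087-189688236 and Mcm6 at chr1:128359706-128359855.
Ccnb1: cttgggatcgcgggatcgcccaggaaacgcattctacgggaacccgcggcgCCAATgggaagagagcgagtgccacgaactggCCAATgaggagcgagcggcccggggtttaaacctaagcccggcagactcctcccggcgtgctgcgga
Top2a: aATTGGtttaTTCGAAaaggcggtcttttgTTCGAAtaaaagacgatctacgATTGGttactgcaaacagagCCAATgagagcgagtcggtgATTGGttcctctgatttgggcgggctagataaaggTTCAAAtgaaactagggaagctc
Cenpf: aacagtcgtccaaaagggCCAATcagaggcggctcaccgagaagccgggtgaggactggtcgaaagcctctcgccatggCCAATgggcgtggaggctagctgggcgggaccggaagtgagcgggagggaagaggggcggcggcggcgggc
Mcm6: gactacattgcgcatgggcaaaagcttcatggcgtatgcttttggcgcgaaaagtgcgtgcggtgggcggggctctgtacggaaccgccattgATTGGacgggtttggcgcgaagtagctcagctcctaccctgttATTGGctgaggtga

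Each of the 4 windows holds at least 2 CCAAT matches, and that of Top2a holds 4 of them with 3 CHR matches. In the 250 bases before the start, CCAAT was found on either strand for 22 of the 29 list members with a RefSeq promoter (75.9%), against 37.5% of 27025 genes. The CHR letters were found for 11 of the 29 (37.9%), each of which also held CCAAT, against 19.6% of all genes for CHR and 7.0% for both motifs. Of 13 promoters of the immature neuron list, which also moved lower, 7 held CCAAT (53.9%), 3 held the CHR letters (23.1%) and 2 held both (15.4%), shares that are above those of all genes too. Of 15 promoters of the myelin list, 6 held CCAAT and 0 held the CHR letters. The motifs do not overlap each other, and a match is a description of the letters only.

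Genes of neural progenitors and of their Notch signalling were mostly lower in AMPK WT: 19 of 26 tested were lower and 1 was higher, with a median of −1.33. Atoh1, the proneural factor of the rhombic lip, had 0 counts in AMPK WT and 4.33, 4.02 and 3.29 CPM in Lmx1b WT, and was at least 35-fold lower, taking 3 counts over the group as the floor. Nhlh1 and Nhlh2, helix-loop-helix factors of newly born neurons, were at 0.156, 0 and 0.343 CPM against 9.0, 7.97 and 6.57 CPM and at 1.17, 0 and 2.06 CPM against 24.8, 28.4 and 25.3 CPM. Sox3, a factor that keeps progenitors undifferentiated, fell by 3.97 on the log2 scale (SE 0.39, adjusted p = 3.6e-07). Its relative Sox2, which adult astrocytes also express, was not called (log2 fold change −0.55). The only member that was higher, Gadd45g, was at 14.4, 7.09 and 11.4 CPM against 6.28, 5.86 and 4.71 CPM. Its call was lost without AMPK WT 1, under library size only, in limma on RPKM and in the test against a 2-fold change.

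Fetal growth genes were lower as well. Of 17 tested genes of the Lin28, Igf2 and imprinted growth group, 11 were lower and 0 higher, with a median of −1.18. H19, the imprinted RNA of fetal tissues, was at 0.781, 0 and 5.48 CPM against 274, 266 and 218 CPM (−6.32 ± 0.44, adjusted p = 7.8e-09). Igf2bp1, a fetal mRNA-binding protein, had 0 counts in AMPK WT and 8.65, 6.92 and 7.35 CPM in Lmx1b WT, which is at least 70.1-fold. Its paralog Igf2bp2 was at 0.312, 3.54 and 0.617 CPM against 11.7, 16.9 and 14.8 CPM. Mycn, a transcription factor gene of progenitors, was at 1.48, 0 and 1.23 CPM against 36.1, 27.9 and 27.6 CPM (−4.51 ± 0.27, adjusted p = 1.7e-09). Other imprinted genes did not follow: Meg3 was at 1591, 1669 and 2621 CPM against 1809, 2737 and 3133 CPM, and Peg3 was at 498, 645 and 731 CPM against 358, 526 and 418 CPM, neither of them called.

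Genes of young neurons had the lowest median among the neuronal lists. Of 20 genes of the immature neuron and growth cone, 19 were lower and 0 higher, with a median of −3.0, and the last one, Elavl4, had a log2 fold change of −0.90. Dcx, whose values are given above, fell by 5.76 on the log2 scale (SE 0.23, adjusted p = 2.9e-11). Sox11 and Sox4, the factors that switch on the young neuronal program, were at 5.62, 7.09 and 8.43 CPM against 351, 257 and 334 CPM and at 14.5, 7.09 and 9.86 CPM against 353, 257 and 303 CPM. Igfbpl1 had the largest decrease among the genes named by size, at 0.625, 0 and 0.343 CPM against 49.8, 37.0 and 39.7 CPM (−6.47 ± 0.31). Islr2, which takes part in axon extension, and Draxin, a repulsive axon guidance protein, were at 1.17, 0 and 2.47 CPM against 166, 90.1 and 135 CPM and at 0.937, 0 and 1.23 CPM against 86.1, 68.4 and 68.0 CPM. Adamts12, a secreted metalloprotease, was at 0.0781, 0 and 0.480 CPM against 16.4, 22.5 and 17.0 CPM. For none of these did a single AMPK WT library reach the lowest Lmx1b WT value, though the rule for names asked this of the deeper libraries.

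**Figure D2:**
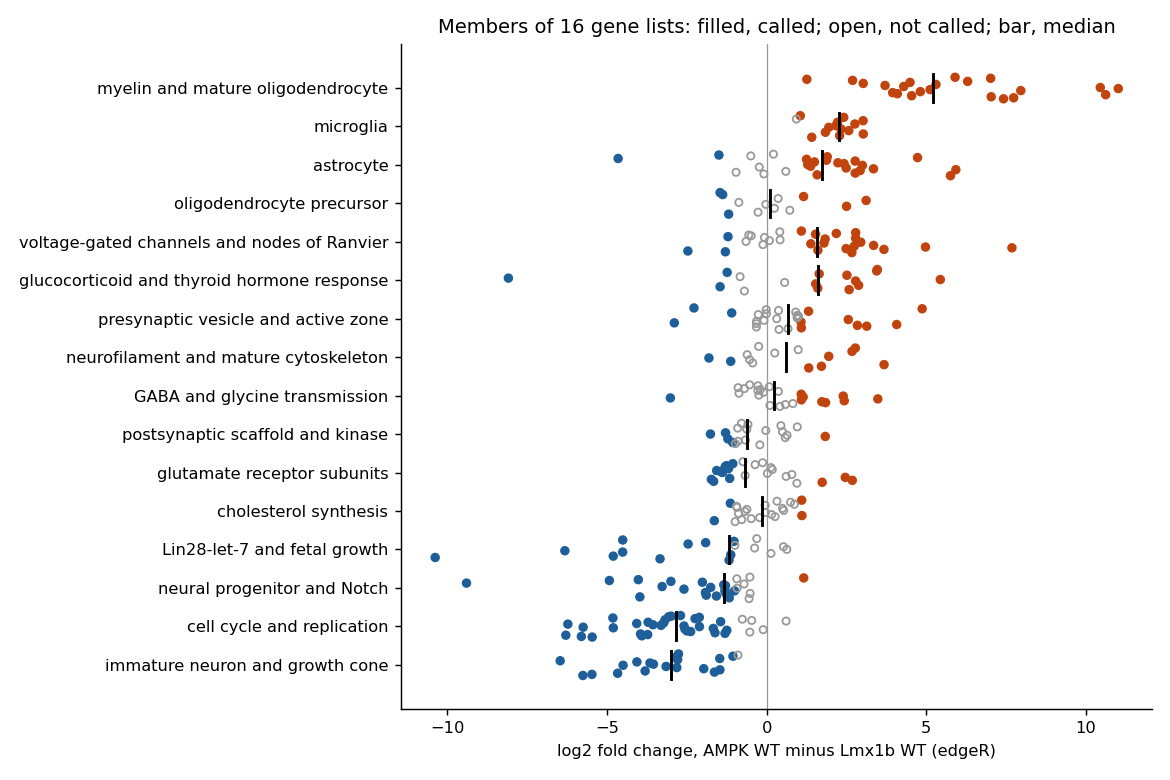
Log2 fold change (AMPK WT minus Lmx1b WT, edgeR) of each tested member of 16 gene lists; filled points are called, open points are not, and the black bar is the list's median. The medians run from 5.21 for myelin to −3.0 for the immature neuron, with the receptor and synapse lists between them on both sides of 0.

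Synaptic genes did not move as 1 block. Of 27 presynaptic genes, 8 were higher and 3 lower, against 14.7% and 15.4% over all genes, with a median of 0.67. Those that were higher included fast-release components: Snap25, a subunit of the fusion complex, was at 1648, 1421 and 1739 CPM against 208, 252 and 214 CPM (2.84 ± 0.20, adjusted p = 7.9e-09). Vamp1, its partner on the vesicle in brainstem and spinal cord, was at 879, 907 and 1035 CPM against 52.6, 67.9 and 47.9 CPM (4.07 ± 0.21, adjusted p = 2.3e-10). The vesicular glutamate transporter Slc17a7 was at 86.7, 117 and 83.4 CPM against 5.12, 2.56 and 1.75 CPM, whereas Slc17a6, the transporter of most brainstem glutamatergic neurons, was level at 233, 216 and 231 CPM against 222, 231 and 241 CPM. Stx1a was lower, at 9.68, 7.09 and 9.32 CPM against 72.9, 63.2 and 74.1 CPM. Slc17a8, another vesicular glutamate transporter, was also lower (−2.28 ± 0.27) and was named after its value was seen. With the trend of fold change with gene length removed, 13 of the 27 were called higher instead of 8.

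On the postsynaptic side, 1 of 19 scaffold and kinase genes was higher and 4 were lower, with a median of −0.62. The lower count was 8 without AMPK WT 3 or under library size only and 7 without Lmx1b WT 2, and the higher count was 2 without AMPK WT 3, Lmx1b WT 1 or Lmx1b WT 3. The higher one was Camk2a, the kinase of synaptic potentiation, at 145, 99.2 and 131 CPM against 39.0, 35 and 36.4 CPM (1.83 ± 0.16, adjusted p = 9e-08). The lower ones included Homer2, Camk4 and Shank2, with log2 fold changes of −1.22, −1.76 and −1.07, the last of them named after its value was seen. Of 23 glutamate receptor subunits, 10 were lower and 3 higher (Grin2a, Grin2c and, outside the rule for names, Grin3b). Over all genes 15.4% were lower and 14.7% higher. The kainate receptor subunit Grik2 was among the lower ones, at 40.6, 14.2 and 40.2 CPM against 90.7, 109 and 109 CPM.

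Subunit exchanges were examined as ratios of length-scaled levels (RPKM) within each library, so that depth and scaling cancel. Grin2a to Grin2b, the adult to the young subunit of the NMDA receptor, stood at 2.00, 1.39 and 1.24 in AMPK WT and at 0.124, 0.151 and 0.147 in Lmx1b WT. Grin2c to Grin2d stood at 1.42, 1.32 and 1.75 against 0.0640, 0.0786 and 0.0822. Both members of each pair were called, in opposite directions: Grin2a 1.74 ± 0.17 and Grin2b −1.66 ± 0.22, Grin2c 2.68 ± 0.24 and Grin2d −1.73 ± 0.20. The glycine receptor, the main inhibitory receptor of the brainstem beside that of GABA, showed the same crossing. Glra1, its adult subunit, was at 21.4, 28.3 and 98.2 CPM against 4.36, 8.28 and 2.58 CPM (3.48 ± 0.48, adjusted p = 1.5e-05). Glra2, its fetal subunit, was at 9.84, 0 and 9.38 CPM against 77.2, 72.8 and 75.5 CPM (−3.02 ± 0.22, adjusted p = 1.1e-08). Their RPKM ratio was 2.84 and 13.7 in AMPK WT 1 and 3, was undefined in AMPK WT 2, and was 0.0738, 0.148 and 0.0445 in Lmx1b WT.

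Of the GABA receptor subunits, Gabra2, Gabra3 and Gabra5 were not called, with log2 fold changes of −0.87, −0.10 and −0.28. The chloride transporters did not cross. Slc12a5 (KCC2), which extrudes chloride and makes GABA and glycine inhibitory, was higher at 360, 361 and 531 CPM against 218, 184 and 196 CPM. Slc12a2 (NKCC1), which loads chloride into young neurons and is also a glial and endothelial gene, was higher by more: 264, 159 and 289 CPM against 48.6, 46.6 and 43.6 CPM (2.43 ± 0.19, adjusted p = 2.7e-08). The ratio of Slc12a5 to Slc12a2 was therefore lower in AMPK WT, at 2.00, 3.32 and 2.69 against 6.57, 5.78 and 6.6. Over the list of 24 tested genes of GABA and glycine transmission, 8 were higher and 1 lower, and the others included Glrb at 396, 340 and 315 CPM against 60.1, 76.4 and 64.1 CPM and the glycine transporter Slc6a9 at 102, 88.6 and 110 CPM against 34.0, 30.7 and 29.1 CPM.

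Excitability genes were mostly higher in AMPK WT. Of 28 voltage-gated channel and node of Ranvier genes, 17 were higher and 3 lower, with a median of 1.56. Scn4b, the sodium channel β4 subunit of resurgent current, had the largest change of this list at 263, 244 and 475 CPM against 2.30, 1.29 and 1.38 CPM (7.68 ± 0.32, adjusted p = 3.6e-11). Scn2b, another β subunit, was at 104, 99.2 and 121 CPM against 22.2, 17.8 and 19.1 CPM. Kcnab2, the β subunit that brings Kv1 channels to the axon, was at 376, 368 and 469 CPM against 45.4, 35.2 and 39.6 CPM. Kcng4, a modulatory potassium channel subunit of fast motor neurons, was among the 10 largest increases at 49.3, 60.2 and 92.3 CPM against 0.172, 0.170 and 0.155 CPM (8.67 ± 0.32). The pore subunits crossed: Scn1a was higher (275, 337 and 439 CPM against 46.6, 66.6 and 53.3 CPM) and Scn3a, the fetal form, was lower (29.2, 53.1 and 32.7 CPM against 158, 213 and 176 CPM). Scn8a, the channel of mature nodes, was higher by 1.6 ± 0.22 on the log2 scale, and Scn2a, which precedes it, fell by 1.30 (SE 0.18). The third lower gene, Cacna1b, was named after its value was seen.

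**Figure D3:**
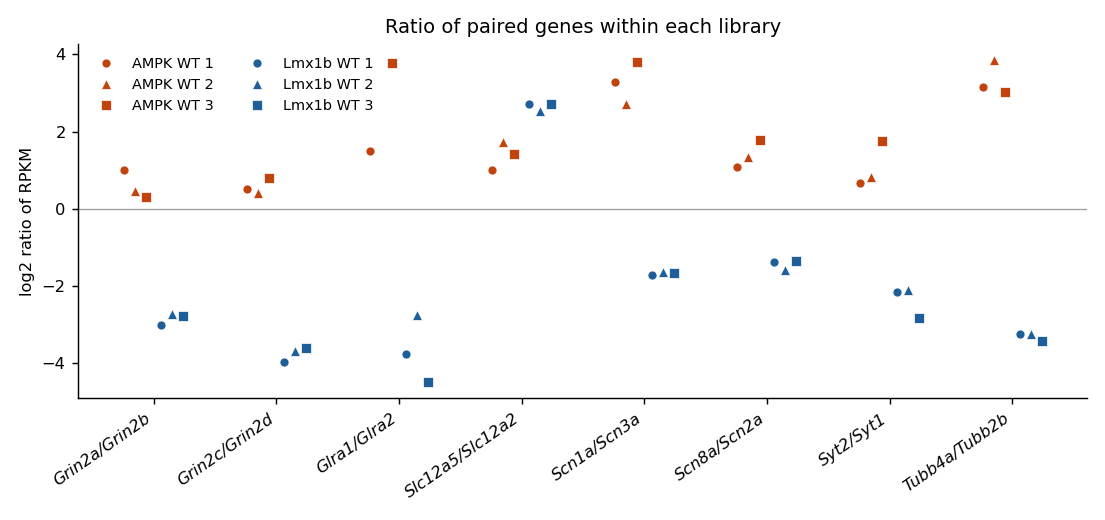
Log2 ratio of RPKM of 8 gene pairs within each library; colour gives the group and shape the library number, and Glra1/Glra2 has no value in AMPK WT 2, where Glra2 had 0 counts. The groups do not overlap for any of the 8 pairs, and Slc12a5/Slc12a2 is the only pair shown whose ratio is lower in AMPK WT.

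Across the 10 pairs compared, 8 of which are described, the groups did not overlap, and the exact two-sided permutation test gave p = 0.1 for 9 of them, the smallest that 3 against 3 allows, and p = 0.2 for Glra1/Glra2, with 2 against 3 libraries (adjusted over the 10 pairs, 0.111 and 0.2). This design cannot reach 0.05. The widest separations were those of Tubb4a to Tubb2b, a tubulin of oligodendrocytes and mature neurons against one of growing neurites, at 8.90, 14.4 and 8.10 against 0.106, 0.106 and 0.0931. Syt2 to Syt1, the fast calcium sensor of brainstem synapses against the common one, stood at 1.58, 1.76 and 3.39 against 0.224, 0.234 and 0.142. For this pair the change lay in Syt2 (3.13 ± 0.26), while Syt1 was not called (−0.33 ± 0.17).

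Neurofilament and extracellular matrix genes also divided by direction. Nefh, the heavy neurofilament of large myelinated axons, was at 550, 528 and 866 CPM against 46.7, 64.7 and 42.8 CPM (3.67 ± 0.24, adjusted p = 3.7e-09), and 6 of 14 genes of its list were higher and 2 lower. Tuba4a was higher too (2.77 ± 0.18), and Mapt, the tau gene, was lower at 386, 400 and 409 CPM against 1479, 1277 and 1434 CPM. Peripherin (Prph), the other lower gene, was named after its value was seen and lost its call without AMPK WT 1, AMPK WT 2 or Lmx1b WT 2. Of 9 matrix genes, 5 were higher and 3 lower. Hapln2 and Hapln4, link proteins of nodal and perisynaptic matrix, were at 140, 56.7 and 130 CPM against 0.275, 0.170 and 0.400 CPM and at 180, 128 and 205 CPM against 3.12, 2.49 and 2.29 CPM. Acan, the aggrecan gene of perineuronal nets, was at 20.6, 28.3 and 32.1 CPM against 1.82, 2.96 and 1.67 CPM. The juvenile matrix was the reverse: Tnc, tenascin-C, was at 5.86, 0 and 6.71 CPM against 155, 176 and 189 CPM (−4.82 ± 0.23, adjusted p = 1.1e-10), and Ncan, neurocan, was at 40.2, 10.6 and 60.8 CPM against 675, 660 and 617 CPM. Vcan was the other lower gene, and Bcan and Hapln1 were the other higher ones, all named after their values were seen. Pvalb, the calcium buffer of fast-spiking neurons, was at 129, 120 and 216 CPM against 1.51, 0.988 and 1.18 CPM (7.05 ± 0.27, adjusted p = 1.3e-11).

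Myelin had the largest median change of the lists described. All 22 genes tested of myelin and the mature oligodendrocyte were higher in AMPK WT, against 14.7% over all genes, with a median of 5.21 and a lowest value of 1.25 (Sirt2). Summed over the list, levels were 34351, 17946 and 23167 CPM against 347, 387 and 319 CPM. Mobp, a basic protein of compact myelin, was at 4020, 2204 and 2434 CPM against 1.75, 2.32 and 1.51 CPM (10.61 ± 0.37, adjusted p = 6.6e-12). Ermn, which shapes the myelin sheath, was at 471, 220 and 297 CPM against 0.172, 0.204 and 0.311 CPM (10.45 ± 0.35). Mal and Mag, a proteolipid of myelin membranes and the adhesion molecule next to the axon, were at 731, 386 and 466 CPM against 2.27, 1.94 and 2.26 CPM and at 802, 397 and 598 CPM against 4.33, 5.49 and 4.26 CPM. Opalin, a protein of mature oligodendrocytes, was at 39.7, 14.2 and 27.6 CPM with 1 count in all of Lmx1b WT, a ratio of 3424 with an exact 95% counting interval of 613 to 135410. Klk6, a protease of mature oligodendrocytes, had 0 counts in Lmx1b WT and 152, 49.6 and 73.5 CPM in AMPK WT, which is at least 3776-fold higher. AMPK WT 1 was the highest AMPK WT library for Mobp, Ermn, Mal, Mag, Opalin and Klk6, and AMPK WT 2 the lowest. Fewer cells of a type and less RNA per cell cannot be told apart in these bulk samples.

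The step before myelin was not shifted in the same way. Of 12 genes of oligodendrocyte precursors, 3 were higher and 3 lower, with a median of 0.10. Pdgfra, the growth factor receptor of precursors, was at 45.7, 46.1 and 56.1 CPM against 92.0, 145 and 109 CPM (−1.19 ± 0.19), and Olig2, a factor of the whole lineage, was level at 31.5, 17.7 and 46.3 CPM against 34.3, 29.7 and 29.8 CPM. Sox10, which also drives myelin genes, was higher at 127, 63.8 and 97.5 CPM against 19.2, 19.2 and 16.9 CPM, as were Neu4 (3.11 ± 0.30) and Sox8 (1.15 ± 0.21). The proteoglycans Cspg5 and Ptprz1 were lower at −1.38 ± 0.17 and −1.46 ± 0.23. Sox8 and Pdgfra were named after their values were seen.

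Astrocyte genes were mostly higher. Of 26, 18 were higher and 2 lower, with a median of 1.72. S100b, a calcium-binding protein of mature astrocytes, was at 778, 319 and 526 CPM against 6.94, 13.5 and 7.17 CPM (5.92 ± 0.34, adjusted p = 9.2e-10). Ntsr2, a neurotensin receptor of astrocytes, was at 191, 149 and 134 CPM against 7.59, 5.69 and 4.93 CPM, and Gjb6, which encodes connexin 30, was at 78.4, 88.6 and 83.0 CPM against 11.5, 10.9 and 9.97 CPM. Etnppl, an astrocyte enzyme of ethanolamine phospholipid metabolism, was among the 10 largest increases at 69.8, 77.9 and 90.1 CPM against 0.137, 0.102 and 0.111 CPM (9.35 ± 0.26, adjusted p = 1.9e-12). The glutamate transporters parted: Slc1a2 was higher at 1677, 1573 and 2434 CPM against 246, 339 and 250 CPM, and Slc1a3, which radial glia also use, was not called at 197, 191 and 178 CPM against 285, 456 and 360 CPM. Fabp7, the fatty acid-binding protein of radial glia, was lower at 20.2, 10.6 and 13.0 CPM against 397, 406 and 425 CPM (−4.65 ± 0.23, adjusted p = 1.6e-10). Nfib was the other lower gene, named after its value was seen, and Sox9 and Aldh1l1 were not called, with log2 fold changes of −0.24 and −0.09.

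Microglial genes were higher almost throughout: 13 of 14, with 0 lower and a median of 2.25. Tmem119, a marker of resident mature microglia, was at 27.0, 7.09 and 16.9 CPM against 2.88, 2.69 and 2.09 CPM (3.02 ± 0.27, adjusted p = 1.5e-07). Csf1r, the receptor on which microglia depend, was at 115, 60.2 and 89.7 CPM against 25.2, 29.4 and 25.8 CPM, and Tyrobp and Siglech had log2 fold changes of 2.41 ± 0.24 and 3.02 ± 0.29. Sall1, the remaining member, was at 59.0, 24.8 and 39.4 CPM against 25.1, 26.7 and 21.6 CPM. Of 15 endothelial and pericyte genes 4 were higher and 2 lower, against 14.7% and 15.4% over all genes. Their median was −0.07. The higher ones were transporters and surface proteins of the mature barrier, Slco1a4 (3.42 ± 0.24), Ly6c1 (3.24 ± 0.28), Abcb1a (1.30 ± 0.19) and Slc2a1, and the lower ones were Kdr, the receptor of vessel growth (−1.66 ± 0.22), and Cdh5; Slc2a1 and Cdh5 were named after their values were seen. Pecam1, a marker of all endothelium, was level at 14.4, 10.6 and 17.9 CPM against 17.4, 19 and 18.5 CPM.

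Energy metabolism genes were higher in part. Counts on mitochondrially encoded genes made up 13.5%, 13.9% and 10.4% of each AMPK WT library and 5.64%, 6.74% and 5.57% of each Lmx1b WT library. These are shares of all counts, which include the most counted gene named above. Of the 13 mitochondrially encoded protein genes, 6 were called higher (median 0.97), among them mt-Nd3 at 567, 500 and 472 CPM against 158, 189 and 182 CPM; the count was 12 with the length trend removed and 11 without Lmx1b WT 2. Of 82 nuclear-encoded genes of the respiratory chain, 31 were higher and 2 lower, with a median of 0.90. Sdha, the catalytic subunit of complex II, was at 445, 411 and 419 CPM against 119, 149 and 135 CPM (1.67 ± 0.17, adjusted p = 4.4e-07), and Cox4i1 and Ndufs7 had log2 fold changes of 1.59 and 1.64. The count of higher genes depended on the AMPK WT libraries: it was 17 without AMPK WT 1 and 44 without AMPK WT 3. It also rested on the scaling, with 14 under library size only. The 2 lower genes, Ndufa4l2 and Cox6b2, were named after their values were seen, and 1 was left without AMPK WT 3 or Lmx1b WT 1. Of 22 genes of glycolysis and the hypoxia response, 8 were higher and 2 lower. The lactate dehydrogenase subunits crossed, with Ldhb at 524, 400 and 473 CPM against 112, 120 and 117 CPM and Ldha at 84.2, 74.4 and 72.7 CPM against 191, 212 and 200 CPM. The neuronal enolase Eno2 was at 729, 691 and 766 CPM against 124, 151 and 125 CPM, and Pfkm was higher by 1.98 ± 0.16, while Pfkp was lower. Ldha and Pfkp were named after their values were seen.

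Of the cytosolic ribosomal protein genes, 0 of 85 were higher, with 2 lower (Rplp0 and Rpl35) and a median of 0.08; 7 were lower without AMPK WT 1, 4 without Lmx1b WT 1 and 1 without AMPK WT 3, and 3 were higher without AMPK WT 3 and 1 without Lmx1b WT 2. The cholesterol synthesis list did not follow the myelin list, although myelin growth draws on cholesterol. Of its 22 genes, 2 were higher and 2 lower, against 14.7% and 15.4% over all genes, with a median of −0.14. Without AMPK WT 1 these counts were 1 and 5, and 4 were lower without Lmx1b WT 2. Tm7sf2, a sterol reductase, was lower (−1.14 ± 0.21). Cyp46a1, which removes cholesterol from neurons and is not an enzyme of its synthesis, was higher by 1.09 ± 0.17. It was below the 2-fold threshold under library size only.

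Genes that respond to glucocorticoid and thyroid hormone were mostly higher. Of 16, 10 were higher and 3 lower, with a median of 1.62. Dio2, the enzyme that activates thyroid hormone, was at 20.6, 14.2 and 57.3 CPM against 0.927, 0.920 and 0.688 CPM (5.44 ± 0.38, adjusted p = 8.8e-09). Dio3, which inactivates it, had 0 counts in AMPK WT and 1.51, 1.91 and 1.27 CPM in Lmx1b WT, at least 14.0-fold lower, and was named after its value was seen. Klf9, a target of both hormones, was at 107, 77.9 and 160 CPM against 18, 17.8 and 14.8 CPM, and the metallothioneins Mt1 and Mt2 were at 305, 159 and 171 CPM against 22.2, 18.9 and 19.6 CPM and at 89.5, 49.6 and 55.8 CPM against 6.90, 6.37 and 5.64 CPM. Hif3a and Cdkn1a were the other lower genes. Fkbp5, a glucocorticoid target, was not called at 11.2, 10.6 and 33.0 CPM against 40.4, 29.3 and 34.6 CPM. These 3 genes, too, were named with their values known.

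Among 18 tested genes that lay out the breathing circuits, mostly transcription factors, 10 were lower and 0 higher, with a median of −1.20. DESeq2 called 6 lower. Lbx1 and Rnf220 had positive log2 fold changes of 0.94 and 0.55 (edgeR adjusted p = 0.00804 and 0.00687) that did not reach 2-fold, and 1 gene was called higher without AMPK WT 3, Lmx1b WT 1 or Lmx1b WT 2. Both were named after their values were seen. Lmx1b itself was not called, at 22.3, 14.2 and 15.8 CPM against 22.0, 15.8 and 9.59 CPM. Pou4f1 was at 6.79, 21.3 and 6.03 CPM against 24.2, 25.6 and 27.3 CPM; the factors Lhx2 and Lhx9, which also mark midbrain and diencephalon, were lower by far (−3.49 ± 0.38 and −4.12 ± 0.45). Among 19 peptides and receptors of breathing control, 2 were higher and 2 lower, against 14.7% and 15.4% over all genes. Penk, the enkephalin precursor, was at 189, 117 and 118 CPM against 40.3, 56.7 and 38.3 CPM (1.70 ± 0.21, adjusted p = 4.1e-06). Trh was at 13.5, 17.7 and 2.33 CPM against 2.03, 1.47 and 1.24 CPM, so that AMPK WT 3 lay close to Lmx1b WT, and the call was lost without AMPK WT 1; without AMPK WT 3, 6 members of the list were higher. The lower count was 1 without AMPK WT 1, AMPK WT 2, Lmx1b WT 1 or Lmx1b WT 3. The lower genes were Sstr2 (−1.36 ± 0.22) and Gpr4, at the threshold with −1.0 ± 0.38 and 0.46 in the other libraries. Tacr1 and Sst, of the preBötzinger complex, were level, with log2 fold changes of 0.12 and 0.16.

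Markers of regions along the neuraxis differed between groups and between libraries. Of 12 tested genes of forebrain and midbrain identity, 11 were lower and 0 higher, with a median of −3.76. Otx2, the midbrain factor whose border ends at the hindbrain, was at 0.0781, 0 and 1.37 CPM against 27.4, 16.8 and 29.3 CPM, and Tcf7l2, a factor of thalamus and midbrain, was at 4.53, 3.54 and 3.97 CPM against 118, 31.4 and 113 CPM. The summed list was at 21.6, 10.6 and 28.0 CPM against 328, 141 and 299 CPM, so Lmx1b WT 2 held less of it than Lmx1b WT 1 and 3. Six3 showed this most plainly, with 1 count in AMPK WT and 10.6, 1.33 and 11.9 CPM in Lmx1b WT, and was named with its values known. Barhl2 and Bcl11b, the other genes named, had log2 fold changes of −3.78 and −2.19. The telencephalic markers Emx1 and Dlx2 were at or below 0.343 CPM in all 6 libraries. Of 16 tested Hox genes of the hindbrain and spinal cord, 5 were higher and 1 lower, with a median of 0.26. In AMPK-/- against Lmx1b+/- the balance was the reverse, with 1 higher and 7 lower of 17 tested and a median of −0.99. The 5 were Hoxb8 at 110, 53.1 and 90.0 CPM against 12.7, 9.13 and 12.7 CPM (3.00 ± 0.21, adjusted p = 7.3e-09), Hoxb6 (2.43 ± 0.27), Hoxb7 (2.34 ± 0.28), Hoxc6 (3.67 ± 0.46) and Hoxc5, while Hoxb2 to Hoxb5 were not called. Hoxd3 was lower, a call lost without Lmx1b WT 2; 2 were lower without AMPK WT 1 or Lmx1b WT 3. Among the other genotypes, scaled with all 15 libraries, Hoxb8 ranged from 3.77 to 88.2 CPM in the first group and from 3.44 to 84.3 CPM in the second, and none of the 5 was called. Hoxc5 and Hoxd3 were named after their values were seen. The part of regional composition in the other results was not tested.

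Serotonergic genes changed direction with the libraries compared. Of 12 in the WT comparison, 7 were lower and 1 higher, with a median of −2.04. Slc6a4, the serotonin transporter, was at 0.546, 17.7 and 1.03 CPM against 23.7, 21.5 and 23.9 CPM (−4.46 ± 0.47, adjusted p = 9.4e-07), and Tph2, which makes serotonin, was at 3.28, 7.09 and 0.822 CPM against 11.3, 8.76 and 9.70 CPM (−2.22 ± 0.40). The shallow AMPK WT 2 lay near Lmx1b WT for both genes, with 5 and 2 counts. In the other libraries the direction was turned round: 6 were higher and 1 lower. Tph2 had a log2 fold change of 2.92 there, and Slc6a4 one of 1.25 that was not called (edgeR adjusted p = 0.136). In those libraries Tph2 was at 153, 4.21 and 74.3 CPM in AMPK-/- 1 to 3, of which AMPK-/- 3 is shallow. It was at 7.09 to 16.1 CPM in Lmx1b+/-. The difference between the 2 comparisons was not tested, and both the AMPK and the Lmx1b genotype differ in the second. In the second, 4 of the 5 genes of the Y-linked and Xist list were called lower as well. The identity factors Gata2 and Gata3, which other hindbrain and midbrain neurons use as well, were lower in the WT comparison (−2.15 ± 0.31 and −4.28 ± 0.44), and Gata3 was lower in both comparisons. Maob, the one gene that was higher (33.1, 17.7 and 23.1 CPM against 4.05, 5.45 and 4.13 CPM), is also an astrocyte enzyme.

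Of 16 cerebellar and rhombic lip genes, 8 were lower, 3 higher and 5 not called. Barhl1, a factor of granule cell and precerebellar precursors, was at 2.03, 3.54 and 3.77 CPM against 68.3, 31.6 and 47.1 CPM (−4.06 ± 0.33, adjusted p = 5.4e-08), Neurod1 was at 2.97, 10.6 and 6.58 CPM against 45.3, 55.0 and 37.6 CPM, and Zic1 was at 52.5, 24.8 and 68.2 CPM against 248, 273 and 202 CPM. Beside Pvalb, the higher ones were Itpr1 and Cbln3. Cbln3, a mature granule cell gene, was at 1.25, 0 and 19.4 CPM against 1.30, 1.47 and 0.999 CPM, so that its call rested on AMPK WT 3, without which the log2 fold change was −0.05. Gabra6, the granule cell receptor subunit, was likewise at 0, 0 and 7.40 CPM against 0 in Lmx1b WT and did not pass the filter on low counts. Itpr1, Cbln3 and Gabra6 were named after their values were seen. Of 9 tested noradrenergic and cholinergic genes, 2 were higher and 2 lower; the higher count was 5 without AMPK WT 1 and 1 without AMPK WT 2 or AMPK WT 3. Slc6a2, the noradrenaline transporter, was at 2.58, 10.6 and 2.40 CPM against 14.3, 5.42 and 16.4 CPM, overlapping through AMPK WT 2 and Lmx1b WT 2, and Prdm8 was lower without overlap (−2.85 ± 0.31). Chat and Th, named after their values were seen, overlapped between the groups even in the deeper libraries, and Chat had a log2 fold change of −0.05 without AMPK WT 3.

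**Figure D4:**
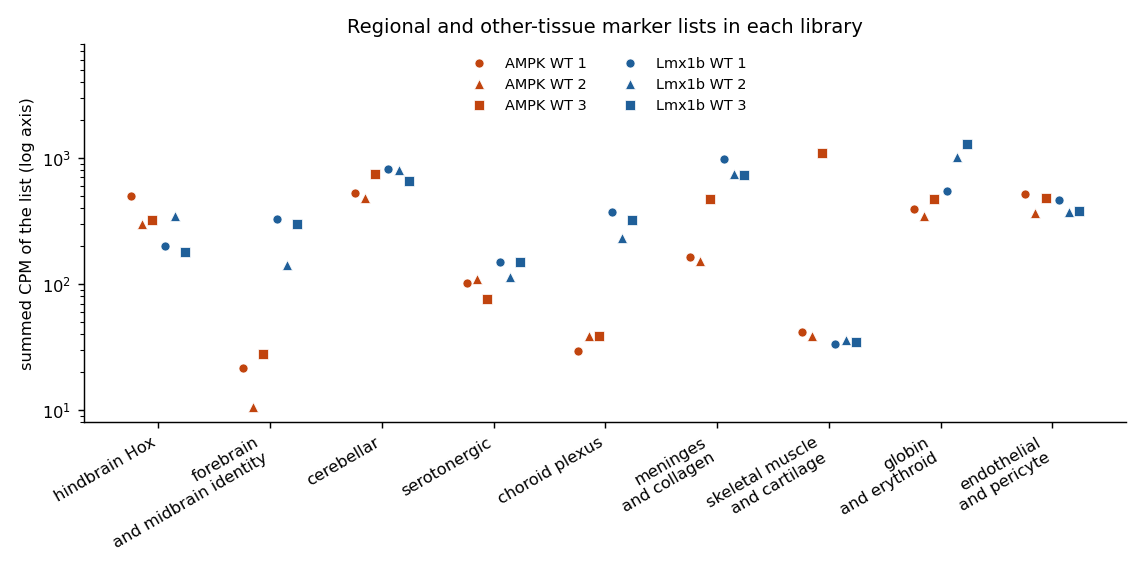
Summed CPM (log axis) of 9 marker lists of other regions and tissues in each library; colour gives the group and shape the library number. Skeletal muscle and cartilage genes reach 1090 CPM in AMPK WT 3 and 33.5 to 41.8 CPM in the other 5 libraries, and forebrain and midbrain genes are lower in Lmx1b WT 2 than in Lmx1b WT 1 and 3.

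Marker genes of tissue next to the brainstem differed between libraries as well. Skeletal muscle and cartilage genes summed to 41.8, 39.0 and 1090 CPM in AMPK WT and 33.5, 35.8 and 34.9 CPM in Lmx1b WT. Of 12 tested, 8 were called higher (2 with DESeq2), but without AMPK WT 3 only Acan was. Mylpf stood at 1.09, 0 and 107 CPM and Myh1 at 0.781, 3.54 and 77.5 CPM. Choroid plexus genes were lower, 7 of 10, with 1 higher (Kl, named with its value known), a call lost without AMPK WT 1 or Lmx1b WT 2. Ttr, the transthyretin gene that choroid plexus makes in abundance, was at 2.19, 7.09 and 6.10 CPM against 327, 195 and 285 CPM (−5.98 ± 0.35, adjusted p = 1.2e-09), and Sostdc1, Kcne2 and Folr1 were lower with it (−3.35, −3.73 and −2.82). Of 14 meningeal and collagen genes, 8 were lower and 0 higher, and 13 without AMPK WT 3; Col4a1, a basement membrane collagen, was at 16.7, 7.09 and 25.4 CPM against 174, 113 and 114 CPM, and Col3a1 was at 3.20, 3.54 and 25.6 CPM against 133, 98.3 and 117 CPM. Of 8 tested globin and erythroid genes 4 were lower and 1 higher, Slc25a37 (1.03 ± 0.21), whose call was lost with DESeq2, voom weights, the replicate block, every other scaling tried and without AMPK WT 3 or Lmx1b WT 1. The 4 were the adult globins, among them Hba-a1 at 71.8, 67.3 and 98.2 CPM against 124, 232 and 281 CPM; Hba-a1 and Hba-a2, and Hbb-bs and Hbb-bt, are near-identical pairs whose reads may be shared. Hbb-bt and Kl stand outside the rule for names. Whether these tissues bear on the neural lists was not tested. Without AMPK WT 3, the library with the muscle signal, the cell cycle, immature neuron and myelin counts were again 31, 19 and 22. Other counts moved without it: 8 postsynaptic genes were lower instead of 4, and 44 respiratory chain genes were higher instead of 31. Most called choroid plexus and meningeal genes were higher in Lmx1b WT, whose libraries all stay in that fit.

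**Figure D5:**
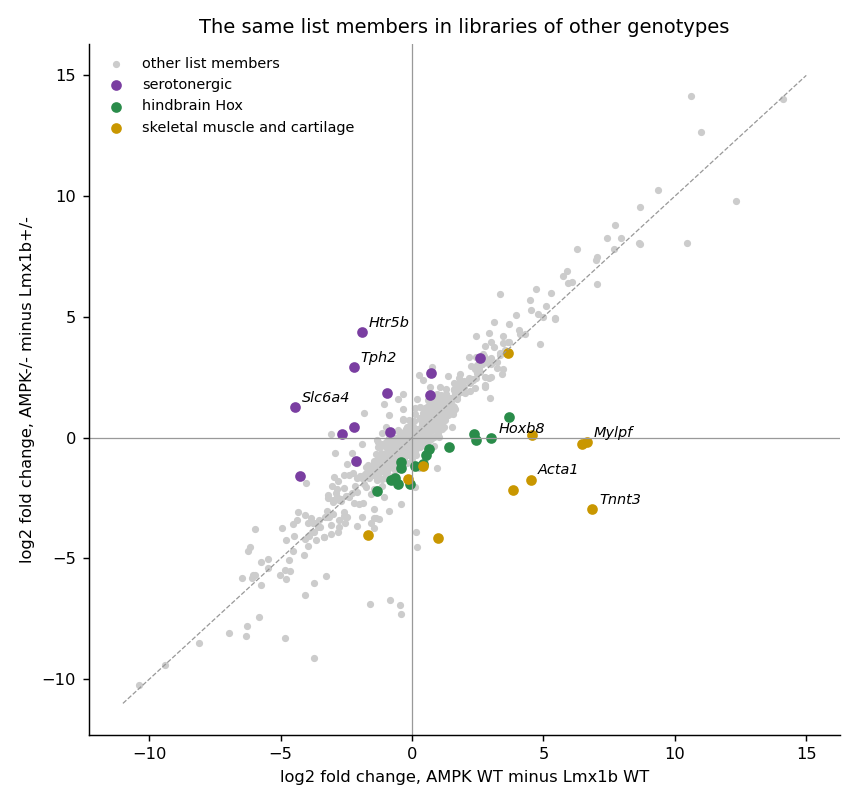
Log2 fold change of each list member in AMPK WT minus Lmx1b WT (horizontal) and in AMPK-/- minus Lmx1b+/- (vertical), which share no library; the dashed line marks equal values, and fitted values of genes with a count of 0 in a whole group depend on the prior count. Serotonergic genes such as Tph2 (−2.22 and 2.92), caudal Hox genes such as Hoxb8 (3.00 and −0.03) and muscle genes such as Tnnt3 (6.86 and −2.95) lie off the line along which most members fall.

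List counts were also compared with the libraries of the other genotypes. There, 33 of 36 cell cycle genes, 19 of 20 immature neuron genes and 10 of 17 fetal growth genes were lower. All 22 myelin genes, 13 of 14 microglial genes, 19 of 26 astrocyte genes and 16 of 28 channel and node genes were higher. Median log2 fold changes there were 5.85 for myelin, −3.17 for the cell cycle and −3.23 for the immature neuron, beside −0.07 over all 19389 genes. Other counts moved by more than 1.5 times: there 17 of 82 respiratory chain genes were higher against 31 in the WT comparison, 14 of 27 presynaptic genes were higher against 8, and 8 of 85 ribosomal protein genes were lower against 2. Of 13 mitochondrially encoded genes 3 were higher against 6, and of 19 breathing peptides and receptors 6 were higher against 2. Of 23 glutamate receptor subunits 6 were higher against 3, and of 19 postsynaptic genes 7 were lower against 4. Noradrenergic and cholinergic genes were higher for 6 of 11 against 2 of 9, and meningeal and collagen genes for 4 of 14 against 0. Globin and erythroid genes were lower for 7 of 9 against 4 of 8, and oligodendrocyte precursor genes for 1 of 12 against 3.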

How the data were processed

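The authors aligned directional mRNA reads with HISAT2 in systemPipeR (build GRCm39 per the submitters' processing notes) and deposited whole-number read counts per gene and RPKM, which are those counts divided by gene length and library total, without pooling. The counter, annotation, strand setting and use of molecular indexes are not given in the sources used here, so overlapping antisense genes cannot be told apart. The 2 count tables were joined by Ensembl identifier (57180 genes, 90.7% matched to a symbol); 0 columns belonged to no sample.

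Counts were tested with edgeR 4.0.16 in R 4.3.3 (filterByExpr, TMM, quasi-likelihood F-test, group as the only term, Benjamini-Hochberg adjustment over 19679 genes). Calls needed an adjusted p under 0.05 and a 2-fold change. SE is the log2 fold change divided by the root of F. limma 3.58.1 (pseudocount 1 for log2 RPKM) and DESeq2 1.42.0 gave alternatives. The scripts were checked on simulated counts. Floors are 3 counts, and floors and intervals cover counting error only.

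Members and lists were chosen with earlier results of these data known. Named were the 10 largest called changes each way (mean at least 10 CPM in the higher group, no overlap in the 5 deeper libraries), up to 4 called genes per list by p without such overlap, all members of the subunit pairs described, and defining markers of other cells. Other genes named, including those completing a count of 5 or fewer, were chosen after their values were seen. Some genes of the lists are counted but not reported here by name.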

Additional observations from a re-analysis of the deposited data

How the results depend on the processing

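The number of genes called (5925; 2885 higher, 3040 lower) stayed within 1.5 times under DESeq2, the likelihood-ratio test, voom weights, other scalings, no filter on low counts, thinning, removal of length and GC trends and the fit of all 15 libraries. It was 1294 (773 and 521) with at least 10 counts asked in every library, which the shallow AMPK WT 2 reduces to 4713 tested genes, 3156 (1609 and 1547) with edgeR's test against a 2-fold change, 9703 (4779 and 4924) with no fold asked, 2121 (997 and 1124) at 4-fold, and 3587 with 1156 higher in limma on log2 RPKM. The share that was higher went from 48.7% to 33.0% under library size only and 32.2% in limma; the cause was not tested in the latter. Leaving out 1 library gave 5716 to 6611 calls. The replicate numbers come from separate experiments and pair no samples: deviations of same-numbered libraries correlated at −0.0652 to 0.0297, and a block on the number gave 5769 calls. Of 4148 values of 194 called genes, those chosen by the naming rule and those named besides, 3923 kept direction and call, 212 lost the call and 13 turned round. In AMPK-/- against Lmx1b+/- these were Gpr4 0.46, Slc6a4 1.25, Tph2 2.92, Hoxb8 −0.03, Hoxb6 −0.10, Hoxc5 −0.39, Prph 0.17, Myh1 −0.27, Mylpf −0.19 and Tnnt3 −2.95. Within the WT libraries 3 turned round, all without AMPK WT 3: leaving out 1 library gave −0.05 to 3.75 for Cbln3, −0.05 to 2.90 for Chat and −2.23 to 7.64 for Tnnt3. Of 1728 list counts under the alternatives, 1417 stayed within 1.5 times. At the depth of AMPK WT 2, 3 counts are 10.6 CPM, so genes below that level cannot be judged in it.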

Other observations

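Immediate early genes, which neurons switch on with activity or handling, were partly higher in AMPK WT: 5 of 11 tested were higher and 2 lower, with a median log2 fold change of 0.75. Egr1 was at 51.9, 35.4 and 30.5 CPM against 3.88, 3.65 and 2.97 CPM (3.54 ± 0.23, adjusted p = 4.6e-09). Fos was at 27.3, 14.2 and 14.5 CPM against 1.37, 2.35 and 2.26 CPM, and Arc at 36.1, 28.3 and 29.5 CPM against 4.64, 2.66 and 3.06 CPM. Npas4 and Egr2 were the lower ones (0 lower without AMPK WT 1 or Lmx1b WT 3, and 1 without any of AMPK WT 2, Lmx1b WT 1 and Lmx1b WT 2) and Egr3 and Junb the other higher ones. Npas4, Egr2 and Egr3 were named after their values were seen.

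Subunits of the kinase after which the AMPK colony is named were measured too, and 1 of 6 was called (2 higher without AMPK WT 2 or any 1 Lmx1b WT library, and 1 lower without AMPK WT 3). Prkaa1, its α1 subunit, was higher at 58.4, 60.2 and 72.3 CPM against 25.7, 34.8 and 28.4 CPM (1.13 ± 0.17, adjusted p = 4.2e-05), a call lost under library size only. Prkaa2, the α2 subunit deleted in the colony, was at 26.0, 28.3 and 34.9 CPM against 56.8, 53.7 and 53.8 CPM, with a log2 fold change of −0.85 ± 0.17 that did not reach 2-fold. Among 14 tested nuclear-retained RNAs, 1 was higher (2 without Lmx1b WT 2) and 1 lower. Neat1, the scaffold of paraspeckles, was at 237, 85.0 and 247 CPM against 4.39, 4.80 and 5.19 CPM (5.43 ± 0.27, adjusted p = 2.1e-10), while Malat1 was at 1262, 1715 and 1606 CPM against 819, 1288 and 1087 CPM and was not called. Of the 10 largest increases, Gm19439 and A230001M10Rik have no role given in the tables used: Gm19439 was at 26.2, 3.54 and 38.9 CPM with 0 counts in Lmx1b WT, at least 1128-fold higher, and A230001M10Rik was at 14.1, 7.09 and 15.3 CPM with 3 counts in Lmx1b WT, a ratio of 505 with an exact 95% counting interval of 171 to 2458.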
